A study of Mus musculus with 20 samples.

Results

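The Myog locus was described here as every ATAC-seq peak within 20 kb of the Myog gene, taken from the peak lists of all 20 libraries. Myog (gene ID 17928) lies on the plus strand of chromosome 1 from 134290004 to 134292548 (GRCm38). Peaks of different lists that shared at least 1 bp were joined into elements. The window held 73 peaks in 16 elements, of 787806 peaks and 101352 merged regions in all. Each element is named below by the distance of its midpoint from the Myog start site, with negative values upstream.

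ATAC-seq marks open chromatin by inserting sequencing adapters into accessible DNA. The cells were C2C12, a mouse myoblast line that forms multinucleated muscle cells when differentiation is induced. They were wild type (WT) or knocked out for Setd2 (KO), which encodes the methyltransferase that trimethylates lysine 36 of histone H3. Cells were sampled at D0, for which the labels give no medium, and at D1 and D5, when they were either in control conditions (CTL) or restricted for methionine (MR). This makes 10 groups with 2 libraries in each. WT groups have replicates 1 and 2, and KO groups have lines 1 and 2, so the spread within a KO group includes the difference between lines. The labels do not say whether WT replicates were separate cultures or whether a KO line was 1 clone, so p-values measure only the spread between these libraries.

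Myogenin, the product of Myog, is a basic helix-loop-helix transcription factor of the family of Myod1, Myf5 and Myf6. It is switched on when myoblasts leave the cell cycle and is needed for their terminal differentiation and fusion. Its proximal promoter is known to be bound through E-boxes by Myod1 and its relatives and through a MEF2 site by Mef2 factors, and it also holds a MEF3 site.

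Myog was proposed for this account because its promoter calls by genotype and day were known, so these calls are given as a description without a test. For the same reason the shares of all regions or genes with like calls are printed beside them as a background only.

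The lists held 644 to 69881 peaks. Background pileup, the mean fragment cover per position recovered from each list under assumed peak caller formulas, was 1.42 to 5.88 in 18 libraries and 0.128 and 0.101 in the D5 CTL and D5 MR libraries of KO line 1, which held 644 and 1881 peaks. KO at D5 therefore rests on line 2. Of the myoblast markers, Myod1, Des, Cdh15, Itga7 and Chrna1 showed a gene-end peak in all 10 WT lists. A gene-end peak is 1 within 1 kb of either end of the gene. In KO, Des, Cdh15 and Chrna1 had one in 8 of 10 lists, which are all but the D5 lists of line 1. Myod1 and Itga7 had one in 7 KO lists. Myf5 and Pax7 had none in any list. None of 6 endothelial and leukocyte markers (Pecam1, Cdh5, Tek, Ptprc, Cd3e and Itgam) had one in any list. Of all 21627 protein-coding genes, 9133 had none in any list, and 31.9% had one in all 8 WT lists of D1 and D5. Of the 11 fibroblast, adipocyte and osteoblast markers, Pparg was called in 10 WT and 7 KO lists, Col1a1 in 8 and 8, Dcn in 7 and 2, Runx2 in 6 and 6, and the others in at most 1. The lists do not check the Setd2 genotype, because a peak call does not measure an edit.

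The promoter sequence is shown because it is overlapped by the promoter element, for whose calls Myog was chosen. RefSeq places 250 bases before and 50 bases after the Myog start at chr1:134289754-134290053 (GRCm38.p6, plus strand). It is printed 5′ to 3′, with the motif matches in capitals, and positions are counted from the start site as 0.
Myog promoter: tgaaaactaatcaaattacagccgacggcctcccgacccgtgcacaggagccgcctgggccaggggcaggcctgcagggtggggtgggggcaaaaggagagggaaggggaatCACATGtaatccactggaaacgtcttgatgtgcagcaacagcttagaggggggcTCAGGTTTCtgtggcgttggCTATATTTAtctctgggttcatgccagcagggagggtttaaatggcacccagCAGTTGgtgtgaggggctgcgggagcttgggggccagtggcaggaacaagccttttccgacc

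The letters CANNTG (E-box, the same on both strands) matched from −138 to −133 as CACATG and from −12 to −7 as CAGTTG. The letters TCAGGTTTC (MEF3) matched once, from −84 to −76, and the letters CTATATTTA (MEF2) once, from −64 to −56, both on the plus strand. The MEF3 and MEF2 letters are those known from this promoter, so their match here follows from the choice. The 4 matches do not overlap. Both strands of 32851 RefSeq promoters of the same length were searched. An E-box was found in 72.3% of them and at least 2 in 39.6%, TCAGGTTTC in 0.429% and CTATATTTA in 0.195%, and 2 promoters held all 3. These 2 are the promoters of Myog and of Myoparr, a non-coding RNA gene next to it, which overlap and so are the same stretch of DNA. A peak here cannot be assigned to one of the 2 genes. A match is a description of letters and not a measured binding site.

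The promoter element, at −0.2 kb, spanned 134289601 to 134290070, from 403 bp before to 66 bp after the start site. Its peak boundaries differed between libraries. The 8 peaks shared a core of 43 bp from −221 to −179, which is printed to show what was called in each of the 8 lists and which lies upstream of all 4 motif matches.
Myog promoter core: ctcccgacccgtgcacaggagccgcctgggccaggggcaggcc

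The upstream E-box lay inside 5 of the 8 peaks, those of WT D1 CTL replicate 1, of both WT D1 MR libraries and of both WT D5 MR libraries. The MEF3 letters, the MEF2 letters and the E-box next to the start lay inside 2 of the 8, those of WT D1 CTL replicate 1 and WT D5 MR replicate 1. The shortest promoter peak, of 68 bp, was that of WT D5 CTL replicate 2.

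The promoter element was called in 8 of 8 WT lists of D1 and D5, in 0 of 2 WT lists of D0 and in 0 of 10 KO lists. The KO count was 0 of 8 without the D5 lists of line 1. Of all merged regions, 145 (0.143%) had the same calls in all 20 lists. Among the 16497 regions called in 8 of 8 WT lists of D1 and D5, 2.44% were called in neither WT D0 list and 1.74% in no KO list. In those 8 lists, 2.13 to 32.8% of these regions had a lower −log10 p-value than the promoter. Most of them were thus at least as strong as the promoter, and regions of its own strength were not compared separately. With only peaks of −log10 q of at least 5, the promoter remained called in 5 WT lists, and among the 20000 strongest peaks per list in 2, those of WT D5 CTL.

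The deposited lists give each peak a fold enrichment over background, a −log10 p-value and a −log10 q-value, which are the authors' own values. They were not scaled between lists, so values printed side by side for different libraries are a description only. The same cuts of −log10 q were applied to every list, whereas ranks and percentiles are within a list. The percentile used here is the share of peaks of the same list with a lower −log10 p-value. In WT D1 CTL the promoter peak had a fold enrichment of 5.01 and a −log10 q-value of 8.33 in replicate 1 (rank 28501 of 60173, percentile 52.6), and 4.19 and 5.10 in replicate 2 (rank 27635 of 45545, percentile 39.3). In WT D1 MR it had 4.11 and 5.60 in replicate 1 (rank 43356 of 69881) and 4.36 and 5.83 in replicate 2 (rank 35761 of 57676), both at percentile 38.0. The promoter was thus not among the strong peaks of any of these 4 lists.

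In WT D5 CTL the promoter peak had a fold enrichment of 3.62 and a −log10 q-value of 4.80 in replicate 1 (rank 12371 of 22465, percentile 44.9), and 3.47 and 4.57 in replicate 2 (rank 11894 of 20847, percentile 42.9). In WT D5 MR it had 3.79 and 5.86 in replicate 1 (rank 22705 of 39538, percentile 42.6), and 3.44 and 4.64 in replicate 2 (rank 24356 of 39263, percentile 38.0). The 8 percentiles thus lay between 38.0 and 52.6, with WT D1 CTL replicate 1 the highest.

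The depth of the KO lists was set beside the missing promoter calls. KO D0 line 1 held 63530 peaks at a background of 5.20 and KO D1 CTL line 1 held 61045 at 3.50, against 60173 at 3.17 in WT D1 CTL replicate 1, which shares the lowest WT background with WT D1 MR replicate 2. KO D1 MR line 1 was at 3.15, and line 2 was below every WT library, at 2.52 in D0, 2.30 in D1 CTL, 2.76 in D1 MR, 1.84 in D5 CTL (29963 peaks) and 1.42 in D5 MR (22062 peaks), against 5.17 to 5.88 in WT at D5. The part of depth in the missing KO calls was not tested. Of the regions that ranked at or above the Myog promoter in both WT lists of a condition, 4.64% were called in neither KO list in D1 CTL and 12.9% in neither in D1 MR. At D5, the KO line 2 list lacked 12.5% of such regions in CTL and 31.5% in MR. The promoter stands at the lower edge of each of these sets by construction. Regions of its own rank were not compared separately, so the shares do not describe regions as weak as the promoter. In a bulk sample, fewer cells with an open promoter and a less open promoter in each cell cannot be told apart.

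**Figure D1:**
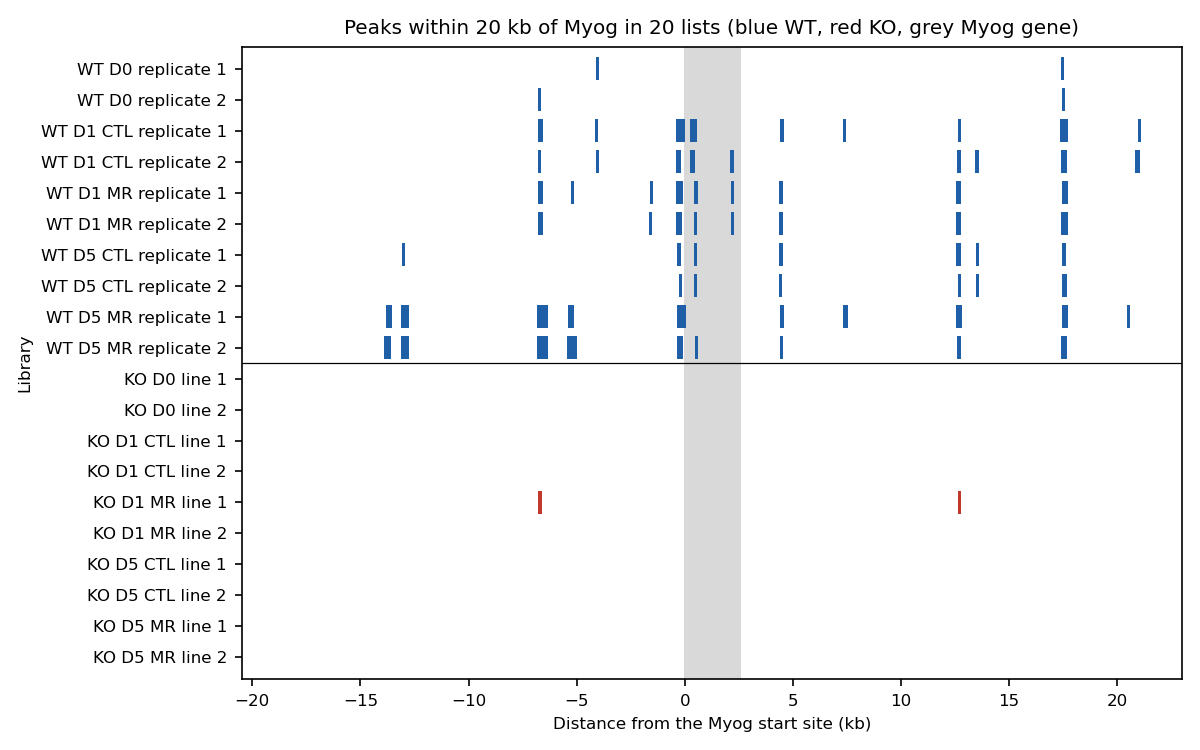
Peaks of each of the 20 lists around Myog, drawn by distance from its start site in kb (x axis) with 1 row per library (y axis), blue for WT and red for KO; short peaks are widened so that they can be seen, and the grey band is the Myog gene. The WT rows hold 71 peaks, with the promoter peak in all 8 rows of D1 and D5, and the KO rows hold 2, both in KO D1 MR line 1.

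The rest of the window was also called mainly in WT. WT lists held 71 peaks in the window and KO lists 2, and 9 of 10 KO lists held none. WT D0 lists held 2 peaks each, WT D1 CTL lists 9 and 9, WT D1 MR lists 9 and 8, WT D5 CTL lists 7 and 6, and WT D5 MR lists 10 and 9. Every one of the 16 elements was called in a WT list, 2 were called in a KO list, and 14 were called in none of the 10 KO lists. Among all regions called in a WT list, 27.3% were called in no KO list.

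Both KO peaks came from KO D1 MR line 1. The one in the element at −6.6 kb had a fold enrichment of 3.95 and a −log10 q-value of 4.45 (rank 36280 of 48460, percentile 25.1). The one in the element at 12.7 kb had 3.15 and 2.19 (rank 46255, percentile 4.55). Neither element was called in KO line 2 in any condition.

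Of 21627 protein-coding genes, 2119 had at least as many WT peaks within 20 kb as Myog. Their median number of KO peaks was 70.2% of the number of WT peaks, against 2.82% for Myog, and Myog was the 1 gene of the 2119 (0.0472%) with 2 or fewer KO peaks. Ccdc88c had a lower percentage, 2.22%, with 135 WT and 3 KO peaks, and Trappc9 and Slc24a4 followed with 5.26% and 5.56%. Among the 12214 genes with a peak within 20 kb in 10 of 10 WT lists, 0.147% had one in 0 or 1 KO list, as Myog did. Windows of neighbouring genes overlap, so genes are not independent here.

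**Figure D2:**
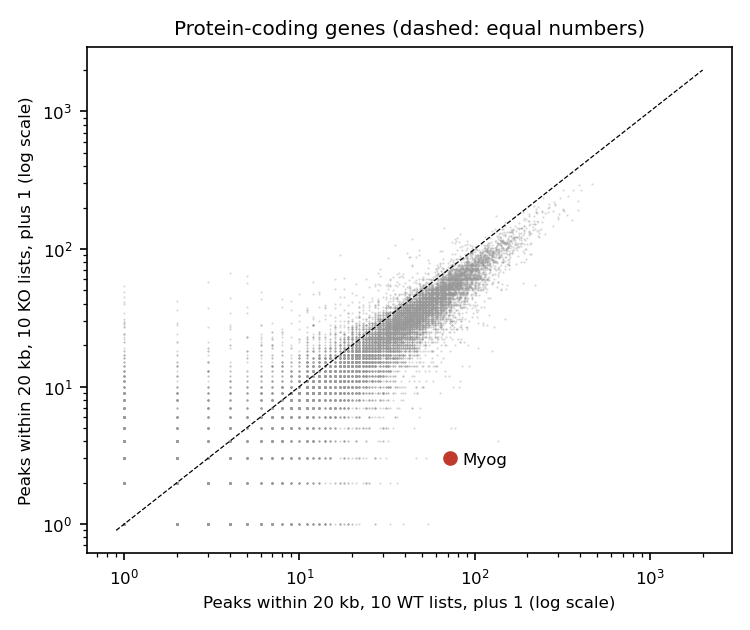
Number of peaks within 20 kb of each protein-coding gene, summed over the 10 WT lists (x axis) and the 10 KO lists (y axis), both plus 1 on log scales; each grey point is a gene and the dashed line marks equal numbers. Myog (red, 71 WT and 2 KO peaks) lies at the lower edge of genes with its number of WT peaks.

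Farther from Myog, KO peaks made up a larger share. Between 20 and 50 kb from the gene, 8 of 11 elements were called in a KO list, with 26 KO and 89 WT peaks, a ratio of 29.2%. From 50 to 100 kb the KO peaks were 31.0% of the WT peaks and from 100 to 200 kb 55.0%. The nearest element called in at least 4 KO lists of usual depth lay 44.3 kb upstream (134245043 to 134245699, 10 WT and 4 KO lists) and 40.2 kb downstream, inside Ppfia4 (134332749 to 134333526, 10 WT and 8 KO lists). At the edges of the window, the outermost elements inside lay 13.5 kb upstream and 18.3 kb downstream of the gene, with 2 WT and 0 KO calls each. The next ones outside lay 24.0 kb upstream, with 1 WT and 0 KO calls, and 28.2 kb downstream, with 7 WT and 0 KO calls.

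Regions called in both genotypes around the locus were ranked within each list. For the 31 regions within 1 Mb of Myog that were called in all 18 libraries of usual depth, the median change of rank percentile against WT lay between −6.35 (KO D0 line 1) and 1.28 (KO D5 CTL line 2). For the 742 such regions of chromosome 1 it lay between −0.114 and 1.53. Of the 51 regions within 1 Mb called in 8 of 8 WT lists of D1 and D5, 4 (7.84%) were called in no KO list, against 1.93% on chromosome 1. Those 4 were the promoter element, the element at 17.5 kb, and regions at −128.4 kb and 46.6 kb from the Myog start. The first 2 lie in the Myog window, and the promoter's calls were known when Myog was chosen. The 7.84% thus includes the chosen locus and does not describe its surroundings alone.

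The nearest genes were compared with Myog by peaks within 1 kb of either gene end. Upstream, Adora1 (134199215 to 134235457), an adenosine receptor gene, had none in any list. Mybph (134193418 to 134201237), the gene of a myosin-binding protein, had one in 10 of 10 WT and 0 of 10 KO lists, and so was already called at D0. Downstream, Ppfia4 (134296783 to 134344756), a liprin gene, had one in 2 WT and 0 KO lists, and Tmem183a in 10 WT and 8 KO lists.

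**Figure D3:**
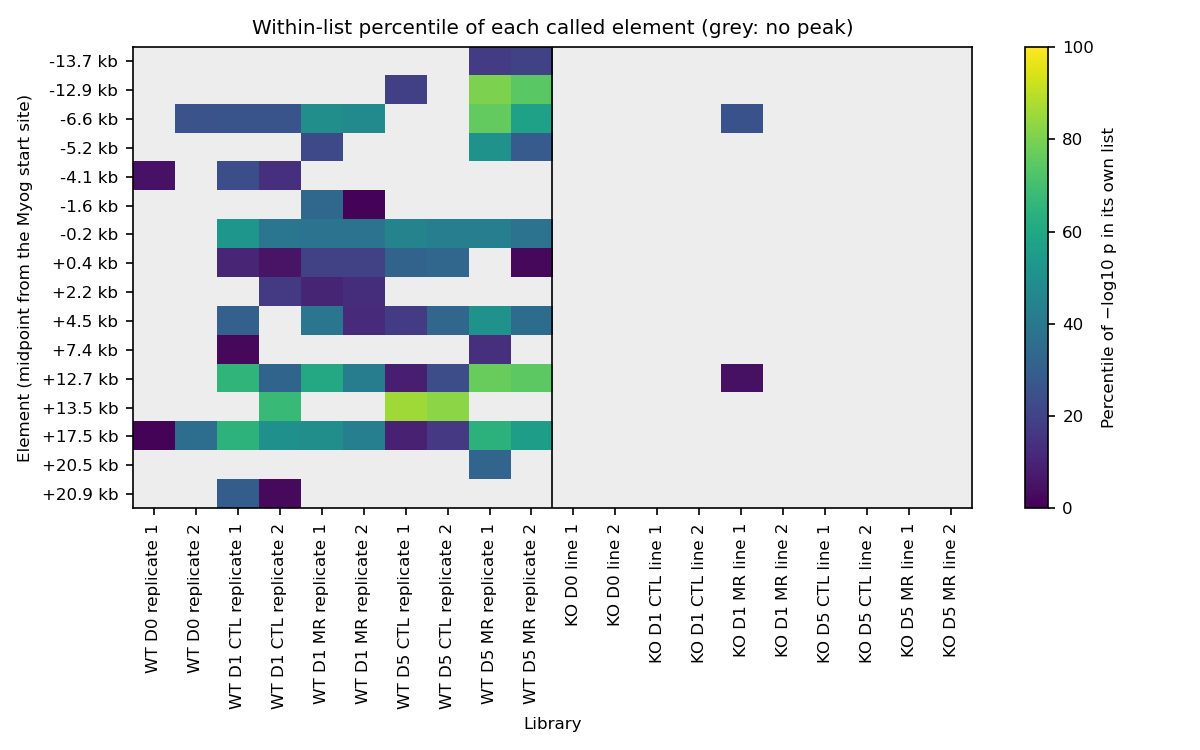
Within-list percentile of the strongest peak of each of the 16 elements (rows, by midpoint from the Myog start site) in each library (columns, WT left and KO right of the line); the colour scale runs from 0 to 100 and grey means no peak. The promoter row at −0.2 kb stays between 38.0 and 52.6 in the 8 WT lists of D1 and D5, and the KO columns are grey except for 2 cells.

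Inside the Myog gene, 2 further elements were called, and in WT alone. The gene table carries no exons, so they are placed in the gene span only. The element at 0.4 kb (134290261 to 134290605) was called in 7 of 8 WT lists of D1 and D5, all but WT D5 MR replicate 1. Its percentiles were 10.8 and 5.33 in D1 CTL, 19.6 and 19.5 in D1 MR, 32.0 and 33.2 in D5 CTL, and 2.23 in D5 MR replicate 2. The element at 2.2 kb (134292167 to 134292254), near the gene's end, was called in WT D1 CTL replicate 2 and in both WT D1 MR libraries, at percentiles of 10.3 to 16.9, and at no other day.

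Between Myog and Ppfia4 lay the element at 4.5 kb (134294405 to 134294600). It was called in 7 of 8 WT lists of D1 and D5, all but WT D1 CTL replicate 2, with percentiles from 11.9 to 51.5, and in no WT D0 or KO list. Among regions called in at least 7 of 8 of those WT lists, 2.62% were called in no KO list.

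Upstream of Myog, 6 elements overlapped no protein-coding gene. The element at −6.6 kb (134283175 to 134283683) was called most often. Its fold enrichment was 3.35 in WT D0 replicate 2, 3.92 and 3.72 in WT D1 CTL, 4.74 and 4.83 in WT D1 MR, and 5.52 and 4.10 in WT D5 MR. Its percentiles were 25.6 at D0, 26.1 and 26.0 in D1 CTL, 49.6 and 48.0 in D1 MR, and 75.9 and 57.4 in D5 MR. At D5 the element was called in both MR and in neither CTL list, as were 11.9% of all regions.

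The element at −12.9 kb (134276888 to 134277268) was among the strongest of the window. It was called at D5 alone, with −log10 q-values of 17.07 and 12.46 in WT D5 MR (percentiles 80.3 and 74.4), and with 2.85 in WT D5 CTL replicate 1 (percentile 19). The CTL peak was 58 bp long and the MR peaks 381 and 368 bp. The adjoining element at −13.7 kb (134276107 to 134276462) was called in both WT D5 MR lists, at percentiles of 17.2 and 19.5.

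The element at −5.2 kb (134284556 to 134285008) was called in WT D1 MR replicate 1 and both WT D5 MR lists, at percentiles of 22.0, 51.1 and 28.8. The element at −1.6 kb (134288378 to 134288525) was called in both WT D1 MR lists, at 33.3 and 0.872. The element at −4.1 kb (134285877 to 134285994) was called in WT D0 replicate 1 at 4.93 and in both WT D1 CTL lists at 23.9 and 13.7. None of these 3 was called in a KO list.

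Downstream, 6 elements lay within the span of Ppfia4. The element at 12.7 kb (134302545 to 134302812) was called in 8 of 8 WT lists of D1 and D5, in neither WT D0 list and in 1 KO list. Its −log10 q-values were 11.68 and 4.27 in D1 CTL, 10.59 and 6.50 in D1 MR, 2.16 and 3.11 in D5 CTL, and 15.18 and 12.64 in D5 MR. Within their own lists, which differ in length, these peaks were at percentiles of 76.9 and 74.9 in D5 MR and 8.3 and 23.8 in D5 CTL.

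The element at 17.5 kb (134307374 to 134307716) was the 1 element called in 10 of 10 WT lists, D0 included, and it was called in 0 of 10 KO lists. Its −log10 q-values were 1.47 and 5.63 at D0, 11.42 and 6.61 in D1 CTL, 7.74 and 6.68 in D1 MR, 2.21 and 2.63 in D5 CTL, and 10.39 and 7.37 in D5 MR. Its percentiles were 0.799 and 36 at D0 and 64.8 and 50.2 in D1 CTL. The 100 regions with these calls make up 0.0987% of all regions.

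The element at 13.5 kb (134303489 to 134303590) was narrow and ranked high where it was called. Its peaks were 54, 102 and 99 bp long, with −log10 q-values of 10.41 in WT D1 CTL replicate 2 and 12.39 and 11.04 in WT D5 CTL replicates 1 and 2 (percentiles 67.9, 85.8 and 82.6). It was absent from WT D1 CTL replicate 1, all MR lists and all KO lists, and 2 regions of all had the same calls. The elements at 7.4, 20.5 and 20.9 kb were called in 2, 1 and 2 WT lists, at percentiles from 2.28 to 32.6.

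Medium was then compared, since it was not the contrast for which Myog was chosen. By calls, 4 elements were seen in a WT MR list and no WT CTL list of D1 and D5 (−13.7, −5.2, −1.6 and 20.5 kb), where 25.9% of all regions called in these 8 lists were of this kind. The elements at −4.1, 13.5 and 20.9 kb were seen in CTL and not in MR, where 7.93% were. The elements at −13.7, −6.6 and −5.2 kb were called in both WT D5 MR lists and neither D5 CTL list, as were 11.9% of all regions. The element at 13.5 kb had the opposite D5 pattern, as had 0.211% of all regions. At D1, the element at −1.6 kb was called in both MR and neither CTL list, as were 7.73% of regions, and those at −4.1 and 20.9 kb in both CTL and neither MR list, as were 1.33%. The WT D5 MR lists held 39538 and 39263 peaks and the D5 CTL lists 22465 and 20847 at similar backgrounds (5.17 and 5.45 against 5.29 and 5.88); the part of list length in these calls was not tested.

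Calls of all regions were tested for medium over the 4 strata of genotype and day with an exact stratified permutation test. Medium was permuted freely within a stratum, so the pairing of KO libraries by line was not used. The KO D5 stratum includes the line 1 lists of 644 and 1881 peaks. With libraries paired by number instead, 189 regions were testable and 0 passed. A p of 0.05 or lower is within reach of the calls of 3909 regions, of which 0 (0.0%) passed after Benjamini-Hochberg adjustment, and 230 had an unadjusted p under 0.05. None of the 16 elements had calls that allow such a p, and the smallest p that any of them allows is 0.167, so the calls of this locus cannot show a difference by medium in this design.

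The strength of the promoter was compared by its position among the 16497 regions called in all 8 WT lists of D1 and D5, that is, the percent of these regions with a lower −log10 p-value in the same library. The set of regions is the same for every library, but it makes up more of a short list than of a long one. Lists held 20847 peaks in WT D5 CTL replicate 2 and 69881 in WT D1 MR replicate 1. The part of list length in these positions was not tested. The promoter stood at 11.4 and 9.30 in D1 CTL (mean 10.4 ± 1.5, SD, n = 2), at 2.13 and 4.2 in D1 MR (3.17 ± 1.46), at 32.2 and 32.8 in D5 CTL (32.5 ± 0.454), and at 10.3 and 7.66 in D5 MR (9.0 ± 1.9). At each day both MR libraries lay below both CTL libraries, and in each medium both D5 libraries lay above both D1 libraries. The share of the 16497 regions with such an order was not counted.

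Over both days the promoter stood at 6.08 in MR and 21.4 in CTL, a difference of −15.4 percentage points, lower in 4 of 4 MR libraries than in the CTL libraries of their day. The two-sided exact permutation p was 0.0556, the smallest that the 36 arrangements allow, and 0.167 after adjustment over 6 contrasts, those of medium and of day for 3 elements. It did not pass the threshold of 0.05, which this design cannot reach. By day the promoter stood at 20.8 at D5 and 6.77 at D1, 14 points apart, which is given as a description because its calls by day were known when Myog was chosen. With the rank over all peaks of a list in place of the fixed regions, the medium difference was −5.84 points (exact permutation p = 0.0556) and the day difference 0.127 points, so that the order of the days rests on the choice of measure.

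The 2 other elements called in all 8 lists had another order of groups. The element at 12.7 kb stood at 14.4 ± 11.5 in D1 CTL, 7.89 ± 3.64 in D1 MR, 9.55 ± 8.33 in D5 CTL and 47.2 ± 2.61 in D5 MR (SD, n = 2 each). The medium difference was 15.6 points (exact permutation p = 0.278, adjusted 0.417) and the day difference 17.2 points. The element at 17.5 kb stood at 18.7 ± 4.11, 5.29 ± 0.557, 6.93 ± 4.12 and 24.9 ± 6.99 in the same order, with a medium difference of 2.30 points (exact permutation p = 0.778, adjusted 0.778) and a day difference of 3.94 points. In D5 MR both elements were at their highest, whereas the promoter was at its highest in D5 CTL. Whether the elements differ from the promoter in these contrasts was not tested.

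**Figure D4:**
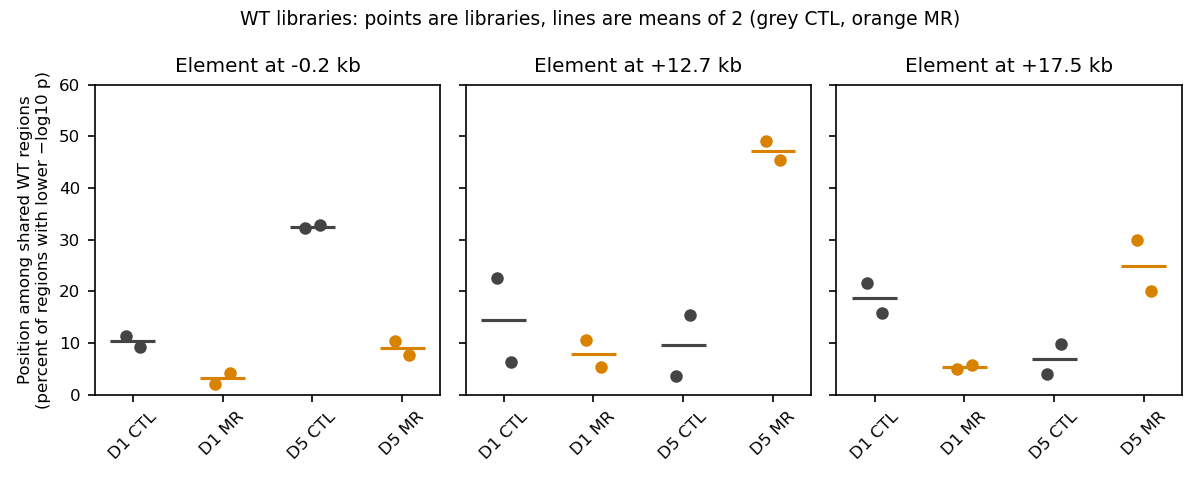
Position of the 3 elements called in all 8 WT lists of D1 and D5 among the regions called in all 8 (y axis, percent of those regions with a lower −log10 p-value), by day and medium (x axis); points are libraries, lines are means of 2, grey is CTL and orange is MR. The promoter (−0.2 kb) is highest in D5 CTL, at 32.2 and 32.8, and the elements at 12.7 and 17.5 kb are highest in D5 MR.

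The genes whose calls were most like those of Myog were named by the number of the 20 lists in which their gene-end call differed from that of Myog. Myog was 1 of 6 protein-coding genes (0.0277%) with these calls. The other 5 were Tnnc1, the gene of slow skeletal and cardiac troponin C, Inha, the inhibin alpha subunit, Apobec2, a muscle-enriched member of the cytidine deaminase family, Gprc5c, an orphan receptor, and Barhl1, a homeobox gene. A further 14 genes differed in 1 list, and of these Acta1 (skeletal alpha-actin), Smim6, Hspb3 (a small heat shock protein), Fbxl22 (an F-box protein) and Gstp2 (a glutathione transferase) had the highest WT percentiles. Acta1 differed by a call in KO D1 CTL line 2, Smim6, Hspb3 and Fbxl22 by one in KO D1 CTL line 1, and Gstp2 by one in WT D0 replicate 2. The mean within-list percentile over the 8 WT lists of D1 and D5 was 42 for Myog, 74.8 for Tnnc1, 56.4 for Inha, 51.2 for Apobec2, 77.1 for Acta1 and 27.3 for Barhl1. Of these 10 genes, 9 matched a RefSeq promoter of 300 bases. An E-box was found in 9 of the 9, against 72.3% of all promoters searched. TCAGGTTTC was found in 0, against 0.429%, and CTATATTTA in 0, against 0.195%. A gene was counted if any of its promoters matched, whereas these shares are per promoter. With so few genes, the E-box count does not set them apart from all promoters.

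**Figure D5:**
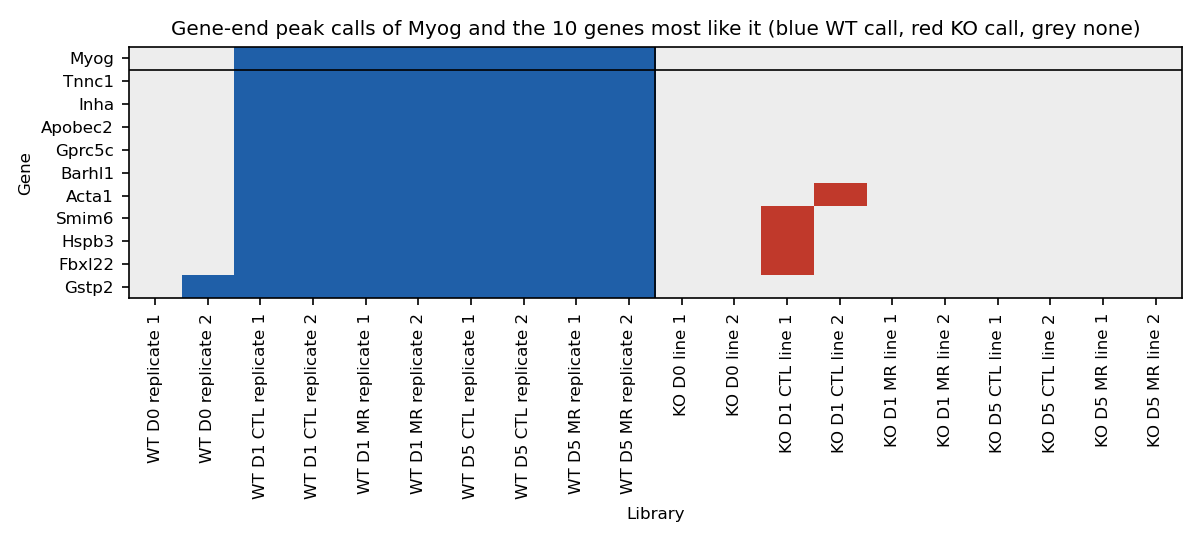
Peak calls within 1 kb of a gene end for Myog and the 10 genes with the most similar calls (rows) in the 20 lists (columns); blue is a call in a WT list, red a call in a KO list and grey no call. The genes were picked for this likeness, so the blue block over the 8 WT lists of D1 and D5 is how they were chosen.

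Genes upstream and downstream of Myog in the differentiation programme were read the same way. Of 14 regulators, 11 had a gene-end peak in a WT list of D1 or D5, as had 54.8% of all genes, and 0 of the 11 lacked one in all KO lists. Myod1, which activates Myog, was called in 10 of 10 WT and 7 of 10 KO lists, and Six4, Mef2d, Tcf3, Tead1 and Tead4 in 10 and 8. These 8 are all the KO lists left without the D5 lists of line 1. Eya1 went the other way, with 3 WT and 7 KO lists. Tcf4 was called in 7 and 6, Myf6 in 6 and 4, and Tcf12 in 3 and 3. Myf5, Mef2a and Mef2c had no gene-end peak in any list. Among all 11852 genes with a gene-end peak in a WT list of D1 or D5, 5.89% lacked one in all KO lists.

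Of 8 repressors of the myogenic programme, 7 had such a WT peak, as had 54.8% of all genes. Of the 7, 0 lacked a KO peak, against 5.89% of all genes with such a WT peak. Id1, Id2 and Id3, which sequester the E-protein partners of myogenic factors, were each called in 10 WT and 8 KO lists. These 8 are all but the D5 lists of KO line 1. Of 4 cell cycle exit genes, all 4 had peaks in both genotypes. In lists this short, a count of 0 without a KO peak does not set the genes apart from the 5.89% of all genes. Cdkn1a, the gene of the cell cycle inhibitor p21, was called in 8 WT lists, none of them at D0, and in 3 KO lists.

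Of 30 fusion and late muscle genes, 28 had a gene-end peak in a WT list of D1 or D5, against 54.8% of all genes. Of these 28, 9 lacked one in all KO lists, against 5.89% of all genes with such a WT peak. The 9 were Tnnc1, Mybph, Actc1, Ckm, Cav3, Myh3, Myl1, Tnnt1 and Atp2a1. Mybph was called in 10 WT lists, Tnnc1 in 8, Actc1 in 6, and Ckm and Cav3 in 5 each. Myh3 was called in 2 WT lists and Myl1, Tnnt1 and Atp2a1 in 1 each, so a missing KO call says little for these. In 8 of 8 WT lists of D1 and D5, 17 of the 30 were called, against 31.9% of all genes, and 2 of the 17 (Tnnc1 and Mybph) were called in no KO list, against 0.304% of all 6908 genes called in those 8. The median number of lists with a call was 8 in WT and 2 in KO for this list, against 3 and 2 for all genes. Several late muscle genes were called in both genotypes. Tnnt2, Tnni1 and Chrna1 were called in 10 WT and 8 KO lists, the 8 being all but the D5 lists of line 1. Mylpf was called in 10 and 9, Mymk, the gene of the fusion protein myomaker, in 10 and 4, and Mymx, the gene of myomixer, in 10 and 3. These lists were chosen with earlier results on some of their genes known, so their counts are no independent evidence of a direction.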

How the data were processed

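ATAC-seq libraries were made by tagmentation of lysed C2C12 cells, 10 cycles of PCR and paired-end sequencing, per the labels' protocols. The deposited files are 1 broadPeak list per library, called per library. The build, GRCm38, is given per the submitters' processing notes; the aligner, filters and peak caller are not given in the sources used here. For every peak the authors deposited a score, a fold enrichment (a ratio), and −log10 values of p and q.

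A call is an overlap of at least 1 bp. Lists were merged over all 20 libraries, and all shares of regions or genes were computed on all of them. Background pileup was solved from the commonest fold and p-value pair of each list, assuming a Poisson p-value and a fold of the pileup plus 1 over the background plus 1. Positions were compared with an exact permutation test within strata. Tests were tested on simulated data. Gene spans and promoters are RefSeq (GRCm38.p6), and gene-end peaks lie within 1 kb of either end of 21627 protein-coding genes. Genes named as alike are the 10 with the fewest differing lists, ties broken by WT percentile.

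Same-numbered KO libraries come from the same line, and their deviations from group means correlated (0.357 to 0.542 over 3 pairs of groups); those of WT did not pair (−0.0510 to 0.120 over 10 pairs). The locus, gene lists and tests were chosen with earlier results of these data known. Python 3.11.15, NumPy 2.4.6, pandas 2.3.3 and SciPy 1.17.1 were used. One gene of the marker and regulator lists is not reported here by name.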

Additional observations from a re-analysis of the deposited data

Results flagged for a closer look

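The element at 17.5 kb, inside Ppfia4, moved in opposite directions by medium at the 2 days in WT. Its position among the regions shared by the 8 WT lists of D1 and D5 was lower in MR than in CTL at D1, by −13.4 percentage points, and higher at D5, by 18 points. In both cases the 2 libraries of one medium lay wholly on one side of the 2 of the other. The element was flagged for this separation. How many of the 16497 shared regions show such a reversal was not counted. Seen by day, the same values give a D5 minus D1 difference of −11.8 points in CTL and 19.6 points in MR. The difference between these effects was not tested. The promoter element and the element at 12.7 kb, read the same way, showed no such reversal of all libraries.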

How the results depend on the processing

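The promoter's KO count of 0 could not rise where peaks or lists were left out, and it was also 0 with peaks up to 100 bp apart joined. In WT it was called in 8 lists with −log10 q of at least 2, with peaks up to 100 bp apart joined and without the D5 libraries of KO line 1, in 5 with −log10 q of at least 5, in 5 where peaks had to cover 50% of the element, in 2 among the 20000 strongest peaks per list, and in 4 (all WT lists of D1 and D5 then remaining) without replicate 1 or 2. The window held 10 elements at 10 kb and 27 at 50 kb, 8 with −log10 q of at least 5, 9 among the 20000 strongest peaks, and 14 to 16 without replicate 1 or 2. Genes with the calls of Myog (6, Myog included) numbered 81 among the 20000 strongest peaks and 17 to 21 without replicate 1 or 2. Regions with the calls of the promoter (145) numbered 48 with −log10 q of at least 5, 482 among the 20000 strongest peaks, and 404 to 426 without replicate 1 or 2. In these settings the calls to be matched were themselves others. They were calls in 5 lists with −log10 q of at least 5, in 2 among the 20000 strongest peaks and in 4 without replicate 1 or 2. The numbers of genes and regions therefore count matches to other patterns than the one with 8 calls. The cause of the other shifts was not tested. Leaving out each WT library in turn, the promoter's medium difference ranged from −17.4 to −14.6 points and the day difference from 13.3 to 16.9. With the replicate block, in which WT libraries are paired by a shared number alone, the values were again −15.4 for medium, with an exact permutation p of 0.125, the smallest that block allows, and 14 for day. For calls of all regions by medium, 0 regions passed in each of the 5 alternatives that could be computed (36 of 189 testable regions at an unadjusted p under 0.05 in the exact permutation test with the replicate block, 168 to 407 in the other 4). It could not be computed without replicate 1 or 2, nor could the position among the 20000 strongest peaks, where the promoter was called in 2 lists.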
